A study of Mus musculus with 30 samples.

Results

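The genes of cholesterol and fatty acid synthesis were followed in cultured adipose-derived stem cells of lean and obese, young and aged mice. They were taken from the gene table by symbol: 39 listed genes, all 39 found among 38561 genes, and all 39 among the 14438 genes that passed the filter on low counts. By role they comprised 5 genes of the sterol-sensing regulatory system (Srebf1, Srebf2, Scap, Insig1, Insig2), 10 enzymes from acetyl-CoA to lanosterol and 8 enzymes from lanosterol to cholesterol. The others were 6 genes of fatty acid precursors and synthesis, 6 elongases and desaturases, and 4 sterol transport genes or targets of the liver X receptors (LXR). RNA came from 30 libraries, 1 per male C57BL6/J mouse, with 8 in the young lean group, 8 in the young obese, 8 in the aged lean and 6 in the aged obese group. The lean groups received control chow, while the obese groups received, from weaning onwards, food in which fat supplied 60% of the energy. Young mice were 20 weeks old and aged mice 52 weeks old, so the aged obese mice had also been on the diet for longer, and among obese mice the effects of age and of diet duration cannot be told apart. Of 12 mice bought for each group, 8 aged obese mice were alive at the end. The cells were isolated from inguinal fat as positive for Sca-1 and CD34 and negative for CD31, CD45 and Ter119, and were grown to passage 2, so what was measured is a state kept in culture and not the level in the fat pad.

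Cells adjust their sterol and fatty acid synthesis through the sterol regulatory element-binding proteins (SREBPs), encoded by Srebf1 and Srebf2. Scap carries these proteins from the endoplasmic reticulum to the Golgi, where they are cut to release the active factor, and the Insig proteins hold Scap back when sterols are plentiful. The SREBP2 protein acts mainly on cholesterol genes and SREBP1c mainly on fatty acid genes, while LXR, activated by oxidised sterols, turns on cholesterol export. Fat tissue is a site of fatty acid synthesis, and its stromal progenitors can become adipocytes, which express many of the same genes at high levels.

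Depth was similar throughout, at 30597765 to 47970233 counts in genes per library. Levels are given as CPM (counts scaled to a common library total). Aged obese 10 and 12 had the least Ly6a, which encodes Sca-1, with 176.5 and 361.8 CPM, and every other library had 549.5 to 1254 CPM. The second sort marker, Cd34, was lowest in the same 2 libraries (0.193 and 0.732 CPM) and reached 38.0 CPM. The stromal progenitor gene Pdgfra ranged from 107.6 to 496.7 CPM. Of the same list, Pdgfrb was at 349.2 to 1194 CPM, Thy1 at 678.7 to 1077 CPM and Col1a1 at 12150 to 44930 CPM. Dcn varied far more, from 0.706 to 55.9 CPM, and was lowest in aged obese 10 and 12 (0.706 and 1.34 CPM). The defining leukocyte gene Ptprc and the endothelial gene Pecam1 were near 0, at up to 0.029 and 0.278 CPM. Other genes of these lists were detected, with Csf1r at 8.22 to 30.7 CPM and Tek at 0.642 to 16.2 CPM. The 7 leukocyte genes summed to 12.2 to 36.9 CPM per library, and the 5 endothelial genes to 1.2 to 20.1 CPM. No pair of libraries agreed within counting noise, but several stood apart. Aged obese 10 and 12 were nearer to each other than to the other 4 of their group. Likewise young obese 1 and 2 lay close together and apart from young obese 18 to 21 and 23, which also lay close together, and the tests treat them as independent. With young obese 1 and 2 left out, genes called over the whole table for obesity in young mice went from 1275 to 143. Without aged obese 10 and 12 those for age in obese mice went from 443 to 2679.

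Per kilobase of the longest annotated transcript, the stearoyl-CoA desaturase Scd2, which makes monounsaturated fatty acids, had the highest level of the 39 genes, with a median of 130.3 CPM per kb and a range of 70.1 to 207.2 over the 30 libraries. The delta-5 desaturase Fads1 followed at a median of 59.1 CPM per kb (41.1 to 85.7), and next came Acly, which makes cytosolic acetyl-CoA from citrate, at 47.0 (26.8 to 62.3), and farnesyl diphosphate synthase Fdps at 44.6 (24.9 to 67.7). The ranges of the last 3 overlapped. Fads1 and Hmgcs1 (up to 90.4 CPM per kb) reached into the range of Scd2. The second desaturase gene, Scd1, was at 30.8 CPM per kb (21 to 63.6). At the low end stood Acacb, the mitochondrial acetyl-CoA carboxylase, at 0.277 CPM per kb, and the cholesterol exporter Abcg1 at 0.074 CPM per kb, with 4 to 74 reads per library. Abcg1 is thus limited by counting error more than any other of the genes. Reads of Scd1, Scd2 and Acat2 may have been lost or split by the counting, as these genes have closely similar relatives.

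Promoter sequences were read to show what the genes share in front of their start sites. They come from RefSeq (GRCm38.p6), with 250 bases before and 50 after the start, and 31 of the 39 genes matched an entry, with 40 windows. Fdps, Fdft1, Sqle, Scd1, Scd2, Fads1, Stard4 and Abcg1 had none. The NF-Y box CCAAT, searched on both strands, was found in 25 of the 31 genes (80.6%), against 42.9% of the 10616 tested genes with a window and 41.1% of all RefSeq genes in the table. All 8 genes from lanosterol to cholesterol had it, as did 6 of 7 from acetyl-CoA to lanosterol, 4 of 5 regulators and 5 of 6 of fatty acid precursors and synthesis, but 1 of 3 elongases and desaturases. The core of the sterol regulatory element, searched as CACNCCA on both strands, was found in 6 of 31 genes (19.4%), against 20.9% of tested genes, and the longer form TCACNCCAC in 1 (Hmgcs1), or 3.23% against 1.38%. The 250 bases before the start are shown for the 3 members with the largest changes in aged obese against young lean mice (Fasn, Insig1, Hsd17b7) and for 2 enzymes whose levels followed the other sterol enzymes closely (Cyp51, Msmo1). Capitals mark every match to CCAAT or CACNCCA on either strand. In Fasn the last 2 CCAAT matches, on opposite strands, overlap. No other marked matches in these sequences overlap.
Fasn (chr11:120824548-120824797, minus strand): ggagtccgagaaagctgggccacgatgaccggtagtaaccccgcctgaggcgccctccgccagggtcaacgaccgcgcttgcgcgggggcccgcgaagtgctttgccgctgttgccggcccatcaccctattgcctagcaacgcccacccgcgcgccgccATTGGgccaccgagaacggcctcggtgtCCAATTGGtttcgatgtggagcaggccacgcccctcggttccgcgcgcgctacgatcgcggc
Insig1 (chr5:28071162-28071411, plus strand): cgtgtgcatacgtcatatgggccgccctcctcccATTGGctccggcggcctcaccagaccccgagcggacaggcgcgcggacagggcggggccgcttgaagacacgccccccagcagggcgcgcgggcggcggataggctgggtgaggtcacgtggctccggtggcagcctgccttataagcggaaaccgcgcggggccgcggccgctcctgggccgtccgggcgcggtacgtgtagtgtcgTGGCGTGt
Hsd17b7 (chr1:169969206-169969455, minus strand): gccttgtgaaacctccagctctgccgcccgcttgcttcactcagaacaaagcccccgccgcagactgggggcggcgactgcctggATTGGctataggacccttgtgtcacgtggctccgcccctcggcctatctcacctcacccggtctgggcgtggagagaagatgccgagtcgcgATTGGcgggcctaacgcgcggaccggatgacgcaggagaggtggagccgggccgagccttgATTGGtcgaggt
Cyp51 (chr5:4104698-4104947, minus strand): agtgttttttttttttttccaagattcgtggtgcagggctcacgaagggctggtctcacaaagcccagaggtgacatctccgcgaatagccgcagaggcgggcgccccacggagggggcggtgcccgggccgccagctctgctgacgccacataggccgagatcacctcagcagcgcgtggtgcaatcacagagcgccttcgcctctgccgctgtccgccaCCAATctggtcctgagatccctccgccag
Msmo1 (chr8:64733579-64733828, minus strand): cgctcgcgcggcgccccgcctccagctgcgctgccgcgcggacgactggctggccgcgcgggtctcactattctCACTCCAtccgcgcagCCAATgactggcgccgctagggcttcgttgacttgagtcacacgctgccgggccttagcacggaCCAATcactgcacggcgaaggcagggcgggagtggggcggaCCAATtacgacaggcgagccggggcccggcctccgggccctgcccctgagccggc
Fasn and Hsd17b7 each had 3 CCAAT matches and no CACNCCA match in these bases, and Msmo1 had 3 CCAAT matches and 1 CACNCCA match. In Cyp51 the one CCAAT match began 29 bases before the start. Insig1 had 1 match of each kind, the CACNCCA match beginning 8 bases before the start on the reverse strand. These are matches of letters, and no binding was measured.

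Obesity in young mice was the first comparison. Fasn, the multi-enzyme fatty acid synthase, was higher in cells of young obese mice than in those of young lean mice, and so was Idi1, which isomerises isopentenyl diphosphate on the way to squalene. These were the only members called by edgeR's quasi-likelihood test at a Benjamini-Hochberg adjusted p below 0.05 over all tested genes, 2 higher and 0 lower of 39. That is 5.13% higher, against 3.46% of all tested genes called higher and 5.37% called lower.

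Fasn was at 106.1, 149.4 and 176.7 CPM (lowest, median and highest) in the 8 young lean libraries and at 189.8, 209.6 and 331.8 CPM in the 8 young obese ones. The groups did not overlap, which held in this direction for 0.866% of tested genes and for no other of the 39. The highest young obese levels were in mice 1 (331.8 CPM), 22 (295.3) and 2 (258.8), and the other 5 lay between 189.8 and 212.3. The mean went from 146.6 ± 23.9 to 235.3 ± 53.9 CPM (SD), a log2 change of 0.68 ± 0.15 (SE, adjusted p = 0.0146). Without young obese 1 and 2 the log2 change was 0.55 with an adjusted p of 0.0618, so the call ended, and with an offset for transcript length and GC content it was 0.49 (adjusted p = 0.0503).

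Idi1 ranged over 7.36, 9.23 and 17.9 CPM in young lean and 11.2, 13.8 and 25.96 CPM in young obese libraries, with overlap. Here too young obese 1 (25.96 CPM), 2 (23.2) and 22 (21.6) were the highest, and the other 5 lay between 11.2 and 15.1 CPM, within the range of the lean libraries. The log2 change was 0.68 ± 0.21 (adjusted p = 0.0424), and without young obese 1 and 2 it was 0.43 (adjusted p = 0.201). The call was also lost on leaving out any 1 of 8 single libraries (young lean 7, 23, 25, 26 or 27, young obese 1, 2 or 22), with adjusted p of up to 0.106.

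No other enzyme of fatty acid synthesis passed. Acacb was at 1.90, 3.23 and 4.01 CPM in young lean and 1.26, 2.15 and 2.80 CPM in young obese libraries, a log2 change of -0.58 ± 0.19 that missed the threshold (adjusted p = 0.0559). With the length and GC offset the call was made (log2 -0.77, adjusted p = 0.0246), as it was by DESeq2 (adjusted p = 0.0368). Acly was at 118.5, 176.6 and 275.5 CPM in young lean and 203.6, 221.8 and 254.8 CPM in young obese libraries (log2 0.31 ± 0.11, adjusted p = 0.0715). Its highest young lean value was that of YL512, the mouse numbered so in the labels, and without this library the log2 change of Acly was 0.43 with an adjusted p of 0.00931. Acaca, the cytosolic acetyl-CoA carboxylase that commits carbon to fatty acids, went from a mean of 38.3 ± 6.85 to 46.0 ± 4.58 CPM (SD, log2 0.26 ± 0.11, adjusted p = 0.111), over 28.6, 37.0 and 48.0 CPM and 42.0, 44.0 and 52.9 CPM. The delta-6 desaturase Fads2 was at 33.9, 54.5 and 73.8 CPM and at 50.7, 76.5 and 84.0 CPM (log2 0.44 ± 0.18, adjusted p = 0.0996). Leaving out YL512 brought the members called in young mice to 7, all higher: Srebf2, Idi1, Hsd17b7, Acly, Acaca, Fasn and Stard4. The share of all tested genes called in that fit is not given here, so this count has no background beside it.

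Over all 39 genes the median log2 change with obesity in young mice was 0.14, against -0.02 over all tested genes, and 26 (66.7%) were above 0, against 47.6%. By role the medians were -0.09 for the regulators, 0.13 from acetyl-CoA to lanosterol and 0.25 from lanosterol to cholesterol. They were 0.14 for fatty acid precursors and synthesis, 0.13 for elongation and desaturation and -0.28 for transport genes and LXR targets. The lowest value was that of Abcg1 (log2 -1.04 ± 0.51, adjusted p = 0.18), at 0.318 CPM in the obese group.

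Aged obese mice differed from young lean mice in both age and diet. In this comparison 6 of 39 members were higher and 0 lower (15.4% higher, against 5.62% of all tested genes called higher and 4.65% called lower): the regulators Srebf2 and Insig1, the sterol enzymes Cyp51 and Hsd17b7, Fasn, and Stard4, which moves sterol between membranes. The control libraries are those of the comparison in young mice, so both comparisons share them.

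Of the regulators, Srebf2 went from 116.8, 144.1 and 176.1 CPM in young lean to 172.2, 190.4 and 213.3 CPM in 6 aged obese libraries. The groups overlapped through YL512 alone, whose 176.1 CPM lay above the 172.2 CPM of aged obese 10. Its log2 change was 0.41 ± 0.10 (adjusted p = 0.0142), or 1.33-fold. Insig1, whose product restrains Scap and whose gene is itself an SREBP target, went from 47.7, 68.3 and 82.3 to 85.9, 117.6 and 181.3 CPM, with no overlap (log2 0.86 ± 0.22, adjusted p = 0.0165). Such separation in this direction held for 0.436% of tested genes, and among the members for Insig1 and Fasn. Srebf1 was at 104.1, 131.1 and 151.6 CPM and at 80.1, 129.7 and 178.3 CPM, with a log2 change of 0.00 ± 0.13 (adjusted p = 0.993); its smallest adjusted p over the 6 comparisons was 0.65.

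Of the enzymes, Hsd17b7, which reduces the 3-keto group of sterol intermediates, had 20.7, 29.1 and 52.2 CPM in young lean and 49.0, 63.0 and 66.0 CPM in aged obese libraries. The one young lean library inside the aged obese range was again YL512 (52.2 CPM), and the next highest young lean library was at 35.9 CPM. The log2 change was 0.95 ± 0.21 (1.93-fold, adjusted p = 0.00857). Cyp51, the lanosterol demethylase, went from 86.9, 132.4 and 161.0 to 136.4, 173.6 and 221.3 CPM (log2 0.47 ± 0.14, adjusted p = 0.0347). Fasn went to 206.6, 257.5 and 384.8 CPM, again with no overlap with the young lean libraries (log2 0.93 ± 0.16, 1.91-fold, adjusted p = 0.0036), and its highest levels were those of aged obese 10 (384.8 CPM) and 12 (362.9 CPM). Stard4 went from 18.7, 23.9 and 37.8 to 27.7, 33.2 and 42.7 CPM (log2 0.46 ± 0.14, adjusted p = 0.0388).

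The calls of Fasn, Hsd17b7, Srebf2 and Insig1 were kept with each of the 14 libraries left out in turn and in 8 other analyses. With only these 2 groups in the fit they were the 4 members called. The call of Cyp51 was lost on leaving out young lean 7 or 27 or aged obese 12, 14 or 16 (adjusted p up to 0.0731). That of Stard4 was lost on leaving out young lean 7, 23, 25, 26 or 27 or aged obese 12, 16 or 17 (up to 0.0836). Without aged obese 10 and 12, Cyp51 (adjusted p = 0.063) and Stard4 (0.0722) lost their calls, Idi1 gained one (log2 0.78, 0.0494), and Fasn was at log2 0.67 (0.015).

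Further genes came near the threshold. In the aged obese group Idi1 was at 12, 15.4 and 24.4 CPM (log2 0.66 ± 0.22, adjusted p = 0.0541), Acly at 204.5, 223.1 and 269.6 CPM (log2 0.33 ± 0.12, adjusted p = 0.0634), and the elongase Elovl5 at 65.7, 79.3 and 85.1 CPM against 52.0, 68.0 and 79.8 CPM in young lean (log2 0.23 ± 0.08, adjusted p = 0.0711). Without YL512 all of them passed, with Scd1 as well, and 10 members were called, all higher. This count, too, has no share of all tested genes beside it. The desaturases Scd1 (log2 0.30 ± 0.20, adjusted p = 0.343) and Scd2 (log2 0.15 ± 0.18, adjusted p = 0.622) did not pass with all libraries. Scd2, the most abundant of the genes per length, was at 382.3, 750.8 and 873.6 CPM in young lean and 475.5, 736.4 and 1130 CPM in aged obese libraries. The cholesterol exporter Abca1, an LXR target, was at 8.999, 22.4 and 53.0 CPM and at 4.52, 23.8 and 45.5 CPM (log2 -0.12 ± 0.47, adjusted p = 0.902). Abca1 varied more within groups than any other member but Abcg1, with an SD of log2 CPM of 0.932 within groups against a median of 0.33 over all tested genes.

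The median log2 change of the 39 genes in this comparison was 0.21, against -0.01 over all tested genes, and 34 (87.2%) were above 0, against 48.8%. All 10 genes from acetyl-CoA to lanosterol were above 0, with log2 changes of 0.07 to 0.66 and 0 called, and so were all 6 elongases and desaturases (0.07 to 0.31). From lanosterol to cholesterol 7 of 8 were above 0, and Tm7sf2, a sterol reductase, was at -0.29 ± 0.32. The lowest of the 39 was Mylip, a ubiquitin ligase induced by LXR (log2 -0.60 ± 0.30, adjusted p = 0.184).

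**Figure D1:**
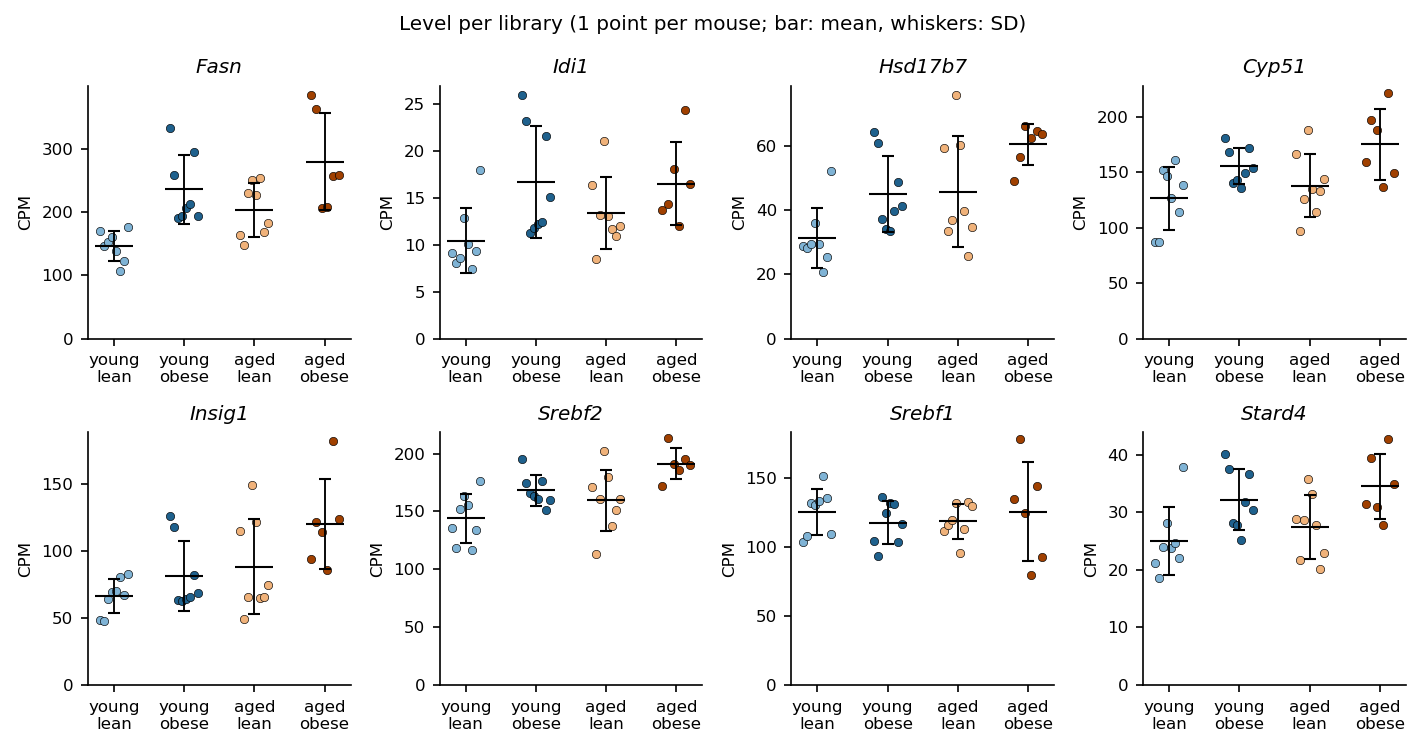
Level (CPM, linear axis from 0) of 8 genes in each of 30 libraries by group, 1 point per mouse, with the mean (bar) and SD (whiskers). All Fasn points of young obese (189.8 to 331.8 CPM) and aged obese mice (206.6 to 384.8) lie above those of young lean mice (up to 176.7). All Insig1 points of aged obese mice lie above those of young lean mice but overlap those of young obese and aged lean mice. Srebf1 has similar means in the 4 groups.

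**Figure D2:**
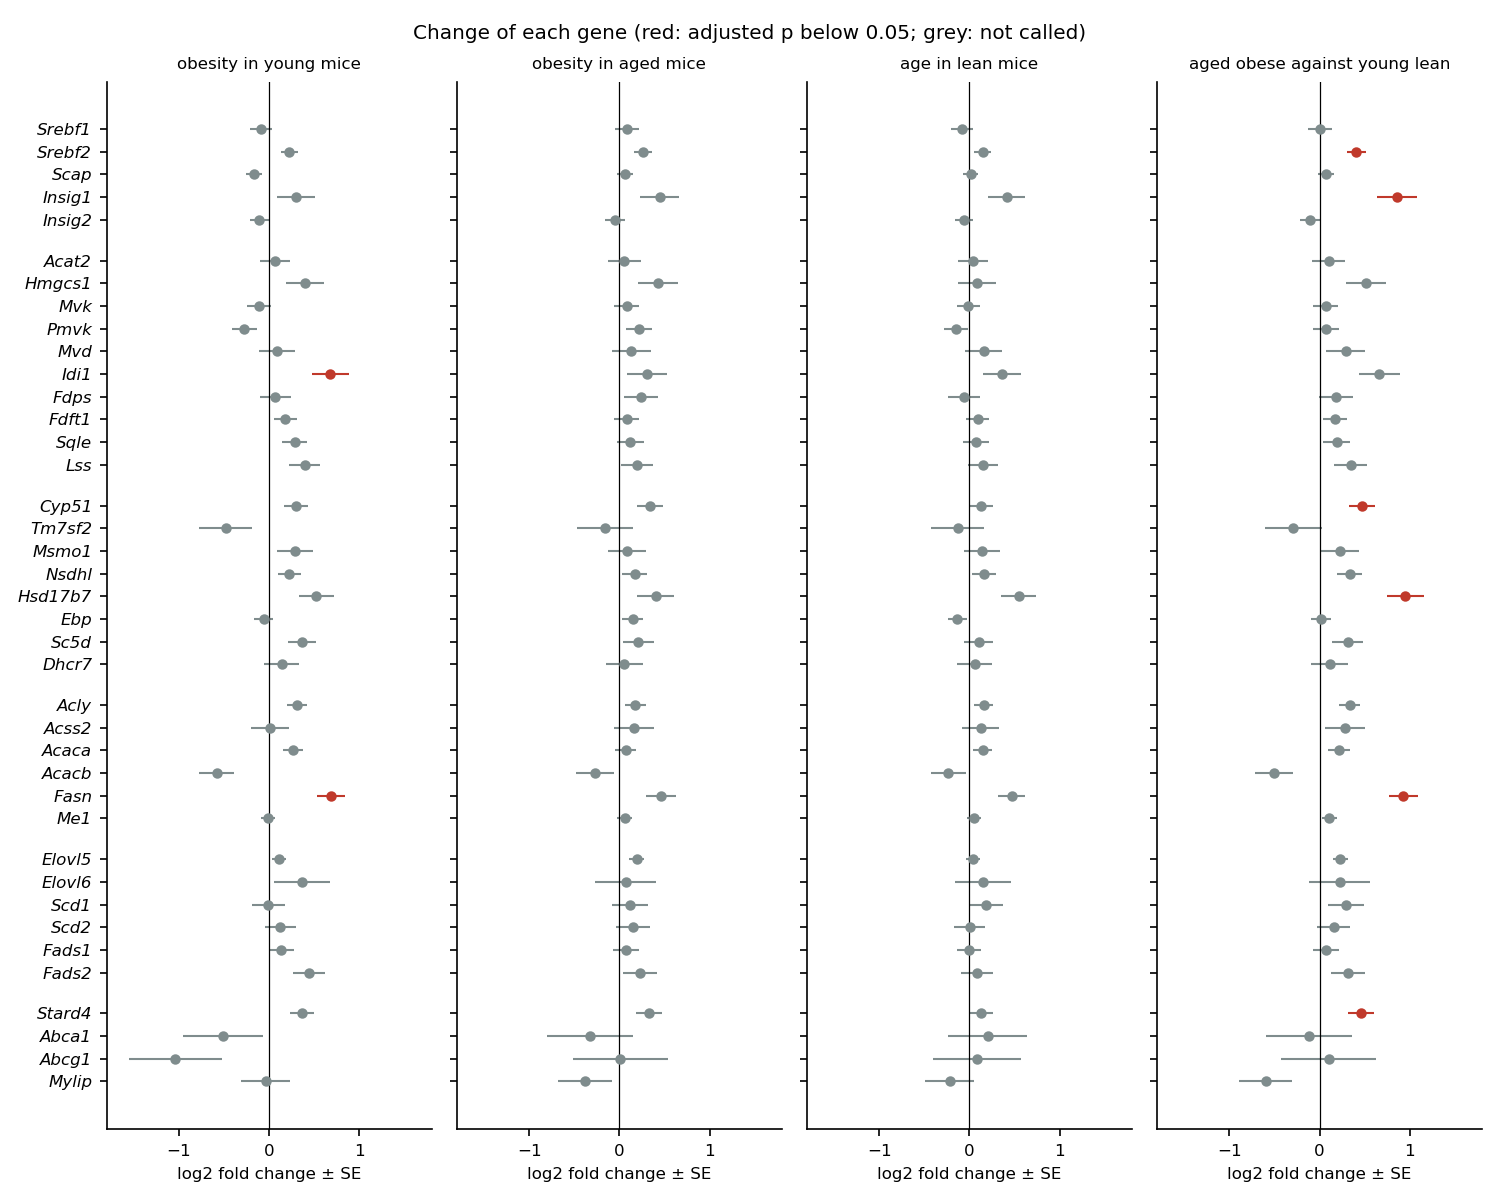
Log2 fold change with its SE (horizontal axis) of each of the 39 genes, grouped by role from regulators at the top to transport genes at the bottom, in 4 comparisons; red points have an adjusted p below 0.05. In aged obese against young lean 34 of 39 points lie right of 0 and 6 are red, and Fasn is red in both comparisons with calls.

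Age and diet were then taken apart. For age in lean mice 0 of 39 members were called by edgeR, as were 0 of all tested genes (0%), and DESeq2 and limma-voom with quality weights called 0 members as well. At an unadjusted p below 0.05 edgeR had 2 members higher and 0 lower, against 2.6% and 2.76% of tested genes. These were Fasn (log2 0.47 ± 0.15, with 147.6, 204.5 and 254.0 CPM in the aged lean group, adjusted p = 0.85) and Hsd17b7 (25.8, 38.4 and 75.8 CPM, log2 0.55 ± 0.19, adjusted p = 0.85). Of the 8 aged lean libraries 7 had more Hsd17b7 than the young lean median.

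For obesity in aged mice 0 of 39 members were called, against 0.166% of tested genes called higher and 0.0554% lower, and 0 by DESeq2 and by voom. At an unadjusted p below 0.05, 5 members were higher and 0 lower, against 6.95% and 5.78% of tested genes: Fasn (log2 0.46 ± 0.16, adjusted p = 0.21), Srebf2 (0.26 ± 0.10, 0.261), Cyp51 (0.34 ± 0.14, 0.301), Stard4 (0.33 ± 0.15, 0.325) and Elovl5 (0.19 ± 0.08, 0.325). Of the 39 genes 34 (87.2%) were above 0, against 51.2% of tested genes, with a median log2 change of 0.13 against 0.01. Without aged obese 10 and 12, which had the highest Fasn levels, its log2 change was 0.20 (adjusted p = 0.518). With all libraries in the fit, all 10 genes from acetyl-CoA to lanosterol were above 0, at 0.06 to 0.43.

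For age in obese mice edgeR called 0 of 39 members, against 1.87% of tested genes called higher and 1.2% lower, and DESeq2 called 0. At an unadjusted p below 0.05, 5 were higher and 0 lower, against 10.5% and 8.44%. Voom with quality weights called 7, all higher (Scap, Insig1, Insig2, Mvd, Hsd17b7, Acss2 and Abca1). The share of all tested genes that voom called here is not given, and the edgeR shares are no background for this count. Insig1 went from 62.8, 67.1 and 126.1 CPM in young obese to 85.9, 117.6 and 181.3 CPM in the aged obese group (log2 0.56 ± 0.22, adjusted p = 0.155). Young obese 1 and 2, at 126.1 and 117.6 CPM, were the highest of their group, and the other 6 were at 62.8 to 81.9 CPM, below every aged obese library. Without those 2 libraries the change of Insig1 was 0.82 and was called (adjusted p = 0.0311).

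The obesity effect was not shown to differ between ages for any member. The interaction called 0 of 39 with edgeR, against 0.00693% of tested genes called higher and 0% lower, and 0 with DESeq2 and voom. At an unadjusted p below 0.05 edgeR had 1 member, Pmvk, a kinase of mevalonate phosphate (log2 0.49 ± 0.20, adjusted p = 0.601), against 5.06% of tested genes higher. For Fasn the log2 change with obesity was 0.68 ± 0.15 in young and 0.46 ± 0.16 in aged mice, a difference of -0.22 ± 0.22 (adjusted p = 0.799). For Insig1 the difference was 0.15 ± 0.30 and for Hsd17b7 -0.12 ± 0.28, each smaller than its SE, so differences of either sign lay within the error. Ordered by mean level, Fasn was lowest in young lean cells (146.6 CPM), then at 202.7 CPM in aged lean, 235.3 CPM in young obese and 279.4 CPM in aged obese cells. Of the steps between ages, neither that in lean mice nor that in obese mice (log2 0.25 ± 0.16, adjusted p = 0.43) passed the test.

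Marker genes of other cell types and of dividing cells were measured in the same libraries. The sum of the 7 adipocyte markers ran from 30.5 to 138.0 CPM (median 53.6) in the young lean group and from 29.4 to 79.9 CPM (median 30.9) in the young obese group. Aged lean libraries had 28.8 to 202.1 CPM (median 53.6), aged obese libraries 53.4 to 83.0 CPM (median 58.0). Most of this was Fabp4. Adiponectin (Adipoq) was at up to 16.4 CPM, and Cidec and Retn were at 0 in some library of every group. The sum was highest among young lean libraries in YL512 (138.0 CPM), the one that stood high for Scd1, Hsd17b7, Srebf2, Stard4 and Acly. None of the 5 adipocyte markers tested was called in any comparison. The sum of the 8 proliferation genes ran from 292.2 to 612.1 CPM among young lean and from 147.3 to 958.9 CPM among young obese libraries; aged lean libraries had 94.8 to 782.7 CPM and aged obese ones 79.9 to 1030 CPM, and none of the 8 was called. The 6 mural markers, mostly Acta2, had a median sum of 3876 CPM in the young lean group (range 2701 to 5556), 5238 CPM in the young obese group (4272 to 5723), 3816 CPM in the aged lean group (3159 to 4935) and 4608 CPM in the aged obese group (3253 to 7459). Of these 6, 2 were called higher in aged obese against young lean, 1 with age in obese mice and 0 with obesity in young mice. Of the 5 stromal progenitor genes 1 was called higher in aged obese against young lean and 1 with age in obese mice. Of all tested genes 5.62% and 1.87% were called higher in these comparisons. The part of other cell types and of dividing cells in the changes above was not tested. A larger share of expressing cells and more RNA per cell cannot be told apart in bulk libraries.

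Within groups the levels of most sterol enzymes varied together. With group means removed, the 153 pairs among the 18 sterol enzymes had a median Pearson r of 0.611 over the 30 libraries, and 68% of pairs were above 0.5, against a median of 0 and 10.8% over all pairs of tested genes. The 66 pairs among the 12 genes of fatty acid synthesis, elongation and desaturation had a median of 0.185 and 13.6% above 0.5, and the 216 pairs between the 2 sets a median of 0.134. Taken one group at a time, the median among the sterol enzymes was 0.699 and 0.382 in the lean and obese groups of young mice, 0.727 and 0.808 in those of aged mice, and 0.529 with the lowest and highest library (young lean 1 and aged obese 16) left out. These values describe libraries that share culture and processing, and that fall in part into sets of close libraries.

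Sc5d, Msmo1, Fdft1 and Cyp51 followed the mean of the other sterol enzymes most closely (r = 0.946, 0.944, 0.943 and 0.939). Hsd17b7 followed it least of the 18, with r = 0.261, although it had the largest log2 change of all members in aged obese against young lean. Insig1 (0.739) and Stard4 (0.604) followed the sterol enzymes, as did Scd2 (0.589), Fads1 (0.556), Srebf1 (0.525) and Srebf2 (0.5). Fasn (0.17) and Abca1 (0.0349) were near 0, and below 0 were Scap (-0.0432), Scd1 (-0.0722), Acaca (-0.151), the NADPH-producing malic enzyme Me1 (-0.222) and Abcg1 (-0.244).

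**Figure D3:**
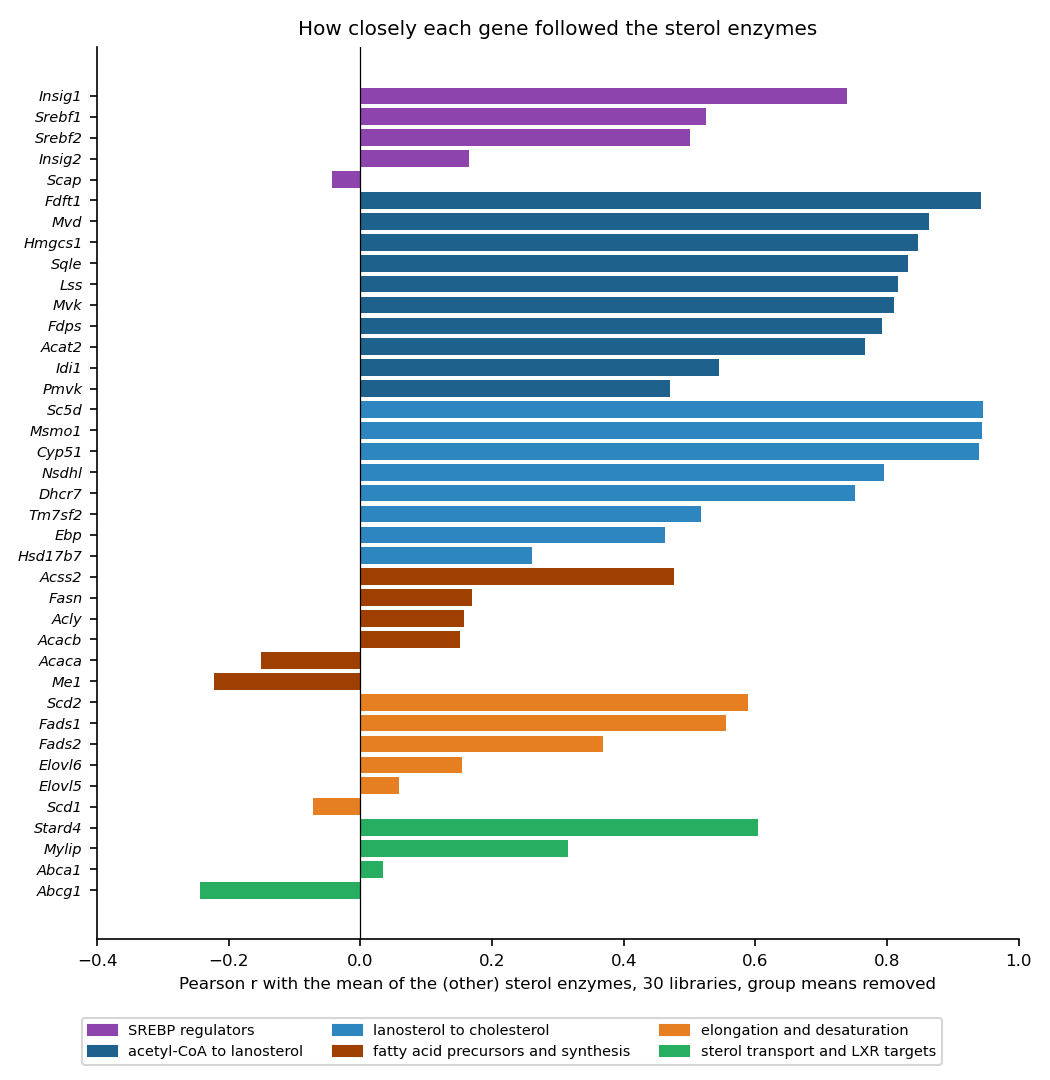
Pearson r of each of the 39 genes with the mean of the (other) sterol enzymes over 30 libraries, group means removed, coloured by role. The sterol enzymes reach 0.946 and Hsd17b7 is the lowest of them at 0.261, while most fatty acid genes lie below 0.5.

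One library was highest for most of these enzymes, and the lowest level was spread over several libraries. Aged obese 16 had the highest level of 13 of the 18 sterol enzymes, with 313.1 CPM of Hmgcs1, which makes HMG-CoA, 138.5 CPM of Msmo1 and 221.3 CPM of Cyp51, and it was 0.71 above the overall mean of the set on the log2 scale. The lowest level was in aged obese 15 for 5 of the 18, in young lean 1 for 4 and in young lean 7 for 3. Aged obese 15 was 0.38 below the mean of the set, with 84.5 CPM of Hmgcs1 and 39.9 CPM of Msmo1. Young lean 1 had the lowest mean of the set, at -0.59. The medians of the groups lay closer together than these libraries, at -0.04 and 0.03 in the lean and obese groups of young mice and at -0.04 and 0.13 in those of aged mice. The spread of the set was thus larger within the aged obese group than between the medians of any groups. For the 12 fatty acid genes the medians in the same order were -0.10, 0.05, 0.05 and 0.06, over a range of -0.39 (young lean 7) to 0.28.

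**Figure D4:**
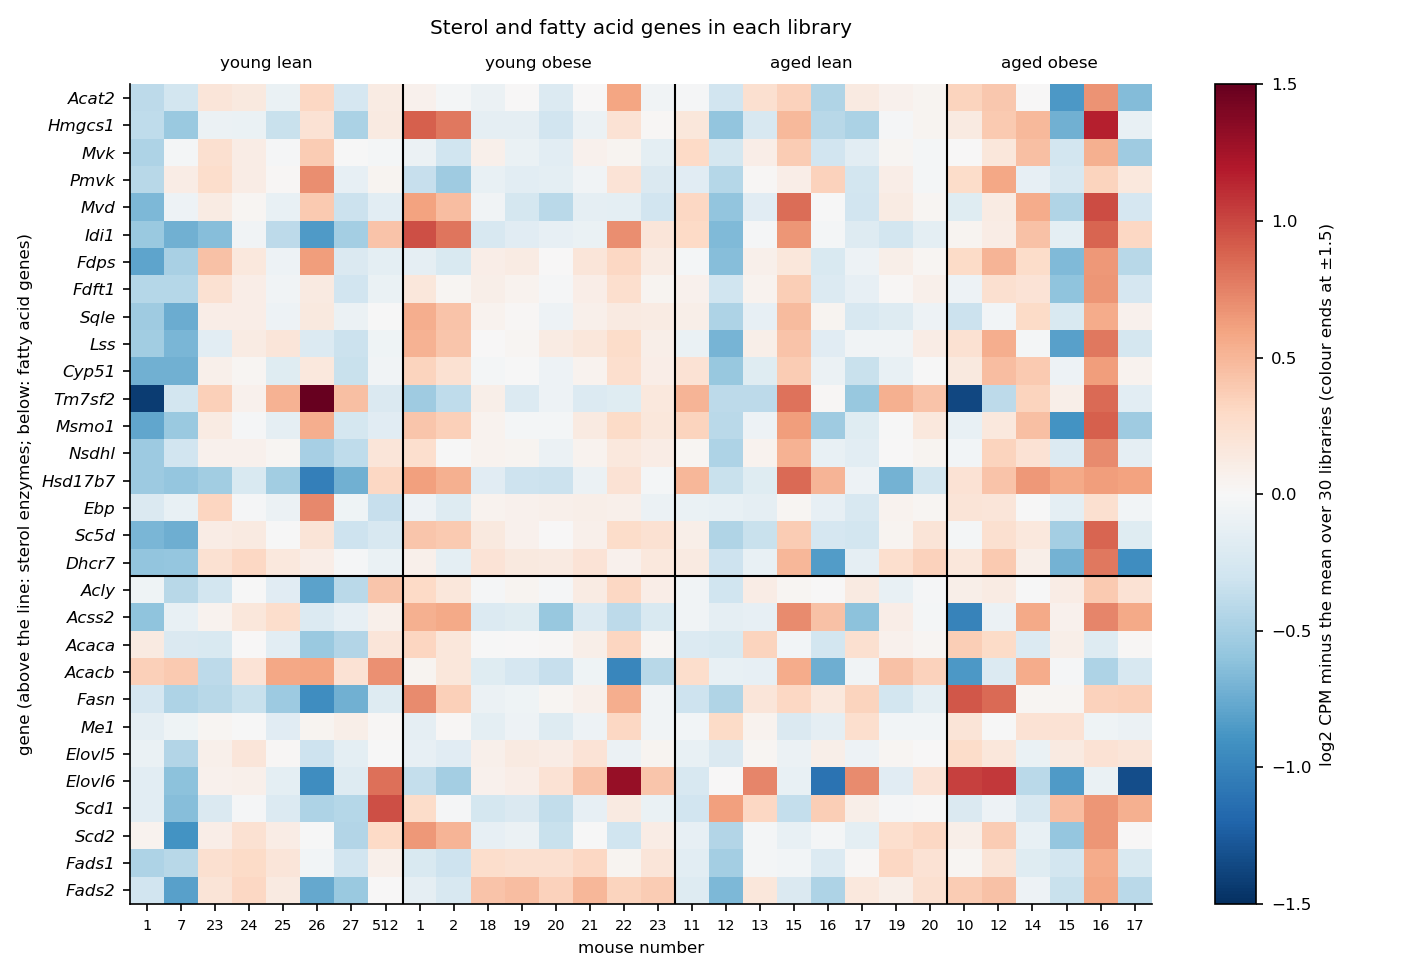
Log2 CPM of each gene in each library minus its mean over 30 libraries (colour, ends at ±1.5), with 18 sterol enzymes above the line and 12 fatty acid genes below, and libraries (mouse numbers) by group. Columns of 1 colour, such as aged obese 16 (high) and young lean 1 (low), show sterol enzymes moving together, and Fasn is blue in all young lean libraries.

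Of the 39 members 3 varied with the proliferation genes at r above 0.5 and 7 below -0.5 (7.69% and 17.9%, against 22.5% and 21.2% of tested genes). Elovl6, which elongates palmitate, had r = 0.823 with the summed proliferation genes over 30 libraries (log2, group means removed). It was at 56.3 CPM in young obese 22 and 46.4 and 47.3 CPM in aged obese 10 and 12, where these genes summed to 958.9, 1030 and 744.5 CPM, and at 9.08 CPM in aged obese 17, where they summed to 79.9 CPM. Fads2 (0.61) and Srebf1 (0.512) were the others above 0.5. In the other direction stood the acetate-activating enzyme Acss2 (r = -0.774), Abca1 (-0.767), Insig1 (-0.623), Insig2 (-0.622), Mylip (-0.612), Hsd17b7 (-0.563) and Sqle (-0.503), of which Insig1, Sqle and, less closely, Acss2 (0.476) also followed the sterol enzymes. Abca1 was at 44.8 and 39.7 CPM in young obese 1 and 2, where proliferation genes summed to 152.9 and 147.3 CPM, and the remaining 6 libraries of that group had 5.16 to 11.6 CPM of Abca1 with a sum of 563.1 CPM or more. Fasn was at 0.117 with this list and 0.122 with the adipocyte list. Fads1 (-0.664), Elovl5 (-0.621) and Fads2 (-0.617) ran against the adipocyte list, and Abcg1 (0.674) and Scap (0.571) with it. These are all the members beyond 0.5 in either direction, 7.69% below and 5.13% above, against 2.09% and 2.93% of tested genes.

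Other genes of the same pathways were counted in the same way. Of 30 other sterol genes tested, 2 were higher and 1 lower with obesity in young mice, where 3.46% and 5.37% of all tested genes were called. The endoplasmic reticulum protein Erlin1, which takes part in the turnover of sterol-sensing proteins, went from 33.9, 37.1 and 39.7 to 41.3, 44.5 and 52.1 CPM with no overlap (log2 0.31 ± 0.09, adjusted p = 0.0313), and the sterol carrier Osbp was higher by 0.27 ± 0.08 on the log2 scale (adjusted p = 0.0435). Osbp was at 82.7 and 81.0 CPM in young obese 1 and 2 and at 54.95 to 62.8 CPM in the other 6, against 49.2 to 63.3 CPM in young lean libraries. Without young obese 1 and 2 its log2 change was 0.14 (adjusted p = 0.229) and that of Erlin1 0.24 (adjusted p = 0.117), so both calls ended. Cyp27a1, which makes 27-hydroxycholesterol, fell from 1.91 to 0.831 CPM in the mean (log2 -1.20 ± 0.27, adjusted p = 0.0151). It had few reads, 35 to 97 per young lean and 19 to 43 per young obese library. Its fit without young obese 1 and 2 is not given here. Erlin1 fell with age in obese mice, by 0.35 on the log2 scale (adjusted p = 0.0396), a call that ended without young obese 1 and 2 (adjusted p = 0.082) or without aged obese 10 and 12 (0.0584). In aged obese against young lean 3 of 30 were higher and 1 lower, against 5.62% and 4.65% of all tested genes. Soat1, which esterifies cholesterol for storage, went from 66.7, 110.5 and 117.0 to 110.6, 158.4 and 184.4 CPM (log2 0.56 ± 0.15, adjusted p = 0.0166), Arl4c, a small GTPase gene and LXR target, was higher by 1.31 ± 0.33 (adjusted p = 0.0155) and Rdh11 by 0.38 ± 0.11 (0.033), while Mmab was lower (log2 -0.41 ± 0.12, 0.0289). Without aged obese 10 and 12 Arl4c was still called, and Soat1 (log2 0.45, adjusted p = 0.0707), Rdh11 (0.18, 0.253) and Mmab (-0.28, 0.138) were not.

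Of 26 other fatty acid genes that passed the filter (33 listed), 0 were called with obesity in young mice (edgeR; 4 higher and 1 lower at an unadjusted p below 0.05, against 12.2% and 16.1% of all tested genes). In aged obese against young lean 2 were higher and 1 lower: Acsl4, which activates polyunsaturated fatty acids (log2 0.82 ± 0.24, adjusted p = 0.0297), Hacd3, an enzyme of the elongation cycle (0.25 ± 0.07, 0.0164), and the mitochondrial Mcat (-0.49 ± 0.14, 0.0299). With age in obese mice 0 were higher and 1 lower, against 1.87% and 1.2% of all tested genes. The lower one was the mitochondrial synthase Oxsm (log2 -0.47 ± 0.13, adjusted p = 0.0419, and 0.0702 without young obese 1 and 2). The members' medians of 0.14 and 0.21 in the comparisons with calls stood beside 0.00 and 0.09 for the other sterol genes and 0.07 and 0.00 for the other fatty acid genes.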

How the data were processed

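The deposited values are read counts for each Ensembl gene in 30 libraries, whole numbers without normalization. The authors' tools were STAR, HTSeq 0.7.0 and DESeq2 1.12.4, per the submitters' processing notes; the genome build, annotation and strand setting of the counting are not given in the sources used here. The 5 lines that name no gene were left out; unassigned reads were 3.94% to 8.75% of a library, ambiguous ones 2.69% to 3.41%. Symbols were matched for 36639 of 38561 identifiers.

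The filter filterByExpr of edgeR 4.0.16 (in R 4.3.3), applied by group, left 14438 genes, and TMM scaled the libraries. A single quasi-likelihood fit across the 30 libraries had 1 coefficient for each group, and p-values were adjusted over all tested genes by Benjamini-Hochberg, with a threshold of 0.05. An SE is that of the log2 fold change. DESeq2 1.42.0 and limma 3.58.1 (voom) served as alternatives. Co-variation used log2 CPM with a prior count of 2. Transcript lengths and GC content came from GENCODE M21 and promoters from RefSeq, GRCm38.p6.

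The members and lists were chosen with earlier results of these data known. Named were the members called in any comparison, those with the smallest adjusted p up to 12, and Srebf1, Scd1, Scd2 and Abca1. Each mouse gave 1 library; no batch is named in the labels, so none was modelled.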

Additional observations from a re-analysis of the deposited data

Results flagged for a closer look

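Of 64 sets of libraries checked, 16 genes in 4 groups, 3 held a library far from the rest of its group. Chance gives about 1 in 20, so 3 of 64 is about the number that chance alone gives. Scd1 was at 307.4 CPM in the young lean library YL512, against 101.5 to 156.0 CPM in the other 7 young lean libraries; this library also had the highest summed adipocyte markers of its group (138.0 CPM). Acacb was at 1.90 CPM in young lean 23, against 2.88 to 4.01 CPM. Elovl5 was at 65.7 CPM in aged obese 14, against 77.6 to 85.1 CPM in the other 5.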

How the results depend on the processing

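The log2 changes of named genes at an unadjusted p below 0.05 kept their sign in every fit run. Signs of the other changes were not followed fit by fit. With DESeq2 size factors in place of TMM, members above 0 went from 26 to 28 for obesity in young mice. For age in lean mice they went from 29 to 31. For age in lean mice, obesity in aged mice and the interaction 0 members were called in every fit run. With obesity in young mice the 2 calls became 1 with no filter on low counts, 4 with DESeq2, 10 with voom (6 higher, 4 lower), 0 without young obese 1 and 2, and 1 with the offset for length and GC content; leaving out 1 library at a time gave 1 to 7, and Fasn was called in all 16 of these fits. For aged obese against young lean the 6 calls became 10 with the offset, and 4 to 10 with 1 library left out. For age in obese mice the 0 calls became 7 with voom and 1 without young obese 1 and 2, and stayed at 0 with any 1 library left out. Over all genes the calls for obesity in young mice went from 1275 to 371 with no filter, 310 with the offset and 4266 with voom. The cause of these differences was not tested. Member counts from fits whose calls over all genes are not given have no background beside them. Leaving out the libraries that stand apart for the other pathway genes was chosen after seeing the data.

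Mouse numbers shared between groups are not stated to pair the animals. Same-numbered libraries had deviations correlated at -0.517 to 0.39, which does not decide whether they are paired. A replicate block over the few libraries with shared numbers was fitted for obesity in young and in aged mice only. It gave 0 calls in young mice (Fasn log2 0.66, adjusted p = 0.517), and in aged mice the count stayed at 0. In young mice only numbers 1 and 23 were shared, too few libraries for these 0 calls to decide anything.

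Limits: 6 to 8 cultures per group, no batch recorded, sets of close libraries within groups, and few reads for Abcg1.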
